A study of Gasterosteus aculeatus with 34 samples.

Results

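The genes described here are 219 predicted gene models of the threespine stickleback (Gasterosteus aculeatus) that lie outside chrY and carry no Ensembl identifier. They were chosen from the 22295 features of the count files by 2 properties: an identifier that does not begin with the Ensembl gene prefix and names neither chrY nor a duplicate on unplaced sequence, and a mean level of at least 1 CPM over the 34 libraries. CPM, counts per 1000000, is the count of a feature over the counts on all gene rows of that library, times 1000000. The files hold 833 such models outside chrY, so 614 fell below the level threshold.

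RNA was sequenced from both the telencephalon and the diencephalon of each of 17 males. The males were raised in the laboratory from wild-caught parents of the "white" ecotype. The groups are defined by a male's last behavioural trial: a courtship opportunity (a gravid female in a flask, 4 males), a territorial challenge (a flask with a rival male that showed breeding coloration, 5 males), a tradeoff (female and rival presented together, 4 males) and a control (empty flasks, 4 males). All males had met every treatment more than once, in random order over 8 trials, and tissue was taken 60 minutes after the last trial. The groups therefore differ in the last stimulus, and males of every group had met all treatments. The order of the earlier trials was random and could differ between males. Each male is 1 replicate of its group.

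Gene prediction fills in loci that a reference annotation lacks. The identifiers have the form written by MAKER, a pipeline that combines several lines of evidence: Augustus is an ab initio predictor that reads the gene structure from the genome sequence, exonerate protein2genome marks a model placed by aligning known proteins, and exonerate est2genome marks a model placed by aligning expressed sequence tags (EST). An identifier such as maker-chrVII-exonerate_protein2genome-gene-10.7 gives the chromosome, the kind of evidence, the number of a window along the chromosome and an index within that window. The telencephalon holds the pallial and subpallial areas of the fish forebrain, and the diencephalon holds the thalamus and the hypothalamus. None of the 22295 identifiers matched the 52177 rows of the RefSeq gene table used here, so no model below has a gene name, a function or a sequence, and models are called by chromosome and number.

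Before the values, a few facts of the libraries bear on all results. Counts on gene rows were 22802875 to 36656215 in telencephalon libraries and 16522465 to 34384860 in diencephalon libraries. Reads that aligned to more than 1 place made 19.3% ± 2.45 of all counts and summary rows in telencephalon libraries, against 4.10% ± 0.264 in diencephalon libraries (SD, n = 17 each), and their part in the region differences was not tested. A predicted model can overlap an annotated gene or share sequence with a close copy, so how the authors' counting assigned its reads is uncertain. Telencephalon and diencephalon could not be checked against marker genes, since no feature has a name. The libraries of male 304, a control male, stood apart for these models: its telencephalon library was the highest of 17 for 12 of the 30 models that were lower in the telencephalon by more than 2-fold, while no other male held that place for more than 5. Its diencephalon library was likewise the highest for 6 of the 23 models that were higher in the telencephalon by more than 2-fold, against at most 3 for any other male. Its share of multiply aligned reads was 19.9% in its telencephalon library and 3.90% in its diencephalon library, inside the ranges of the other 16 males (11.3 to 21.9% and 3.72 to 4.73%). Of the 53 models that differed by more than 2-fold, male 304 had the smallest difference between its own regions for 20, measured as log2(CPM + 0.5), and any other male for at most 11. Whether the samples of male 304 held tissue of both regions was not tested. Main results are also given without this male.

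Most of the predicted models outside chrY were weakly expressed or not detected. Of the 833 models, 213 (25.6%) had no count in any of the 34 libraries and another 401 had counts but averaged below 1 CPM. Among the Ensembl genes, 437 of 20747 (2.11%) had no count, and 16267 (78.4%) reached 1 CPM. The share that reached the threshold differed between the kinds of evidence. It was 33 of 47 Augustus models (70.2%), 184 of 733 models placed by protein alignment (25.1%) and 2 of 53 models placed by expressed sequence tags (3.77%). No Augustus model was without counts, whereas 174 protein-aligned models and 39 of the expressed-sequence-tag models were.

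The 219 models ranged over more than 2 orders of magnitude. Their mean levels ran from 1.0002 to 366 CPM, with a median of 5.99 CPM and quartiles at 2.27 and 14.0 CPM. The median of the Ensembl genes that reached 1 CPM was 22.5 CPM. The median was 10.2 CPM for Augustus models and 5.85 CPM for protein-aligned models. In all, 79 models averaged at least 10 CPM, 4 averaged at least 100 CPM, and 2 stood among the 1000 most abundant features. Counts were present in all 34 libraries for 215 of the 219, and the sparsest had counts in 30. These are levels per feature, not per length, so the order of abundance between models may also carry their lengths, which the files do not give.

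**Figure D1:**
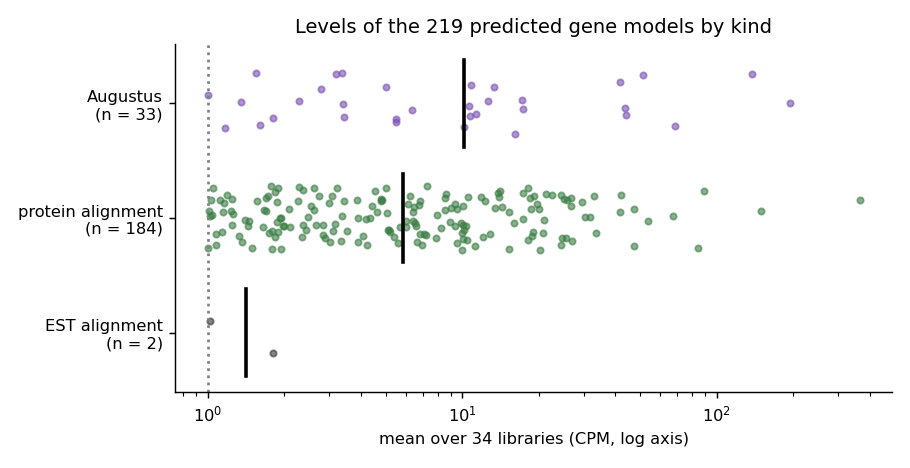
Mean level of each of the 219 predicted models over 34 libraries (x axis, CPM, log scale) by the kind of evidence behind the model, with black bars at the medians and a dotted line at the threshold of 1 CPM. Augustus models have a median of 10.2 CPM and protein-aligned models 5.85 CPM, and both EST-aligned models lie close to the threshold; the vertical scatter within a row carries no value.

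Just inside the threshold stood the chromosome XXI model 7.24 at 1.01 CPM, the chromosome XII Augustus model 55.12 at 1.003 CPM and the chromosome III model 44.8 at 1.0002 CPM. Just outside it stood the chromosome XI model 107.18 at 0.980 CPM, the chromosome VI model 145.12 at 0.960 CPM and the chromosome XXI model 155.0 at 0.948 CPM.

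All 21 chromosomes named in the identifiers carried at least 1 expressed model, in unequal shares. Chromosome XII had 19 of its 39 predicted models (48.7%) at 1 CPM or more, chromosome VII had 23 of 55 (41.8%) and chromosome IV, with the most models, had 25 of 144 (17.4%). Chromosome XIII had 2 of 27 (7.41%). These shares are counts over this annotation and were not tested.

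Together the 219 models took a small part of each library. They made 0.336% ± 0.0193 of gene counts in telencephalon libraries (range 0.297 to 0.375%) and 0.302% ± 0.0128 in diencephalon libraries (range 0.276 to 0.325%; SD, n = 17 each). The share was higher in the telencephalon in 16 of 17 males. The chromosome XV model 155.21 alone supplied 11.97% of all counts on the models, and the 10 most abundant supplied 40.3%. Without that single model the shares were 0.284% ± 0.0136 in telencephalon libraries and 0.281% ± 0.0111 in diencephalon libraries, and 9 of 17 males had the higher share in the telencephalon. Between libraries of 1 region, the median coefficient of variation of a model was 19.3% among telencephalon libraries and 16.2% among diencephalon libraries, against 13.8% and 11.8% for Ensembl genes of at least 1 CPM. The 2 sets were not matched for level, with medians of 5.99 CPM for the models and 22.5 CPM for the Ensembl genes.

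The first comparison sets the telencephalon against the diencephalon of the same males. The main fit held region and treatment but no term for male, so it did not use the pairing. A fit with male as a block called 175 of the 219 models and 14602 of the 18012 features tested. The share of models that differed between the regions was close to that of all features. In edgeR's quasi-likelihood test, which is two-sided, with p-values adjusted by the Benjamini-Hochberg method over all features, 165 of the 219 models (75.3%) passed an adjusted p of 0.05, and 13561 of 18012 features tested (75.3%) did so. Of the models, 76 (34.7%) were higher in the telencephalon and 89 (40.6%) were lower, against 36.9% and 38.4% of all features. The median log2 fold change of telencephalon over diencephalon was -0.06 over the models and -0.02 over all features. Without male 304, 76 models were called higher and 88 lower. In bulk tissue, more RNA per cell and more cells that express a gene cannot be told apart.

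Differences of more than 2-fold took a larger share of these models than of all features. A called difference of more than 2-fold was found for 23 models higher in the telencephalon (10.5%, against a background of 4.61% of all features) and 30 lower in it (13.7%, background 9.2%). Full separation of the regions, where the lowest library of one lay above the highest of the other, was found for 15 models higher in the telencephalon (6.85%, background 6.56%) and 28 lower in it (12.8%, background 11.4%). Without male 304, 24 models were higher and 30 lower by more than 2-fold (background 4.89% and 9.55%), and full separation was found for 18 models higher and 35 lower (background 7.67% and 13.8%). These shares were set side by side and not tested. The models sit at lower levels than most features, and a model expressed mainly in 1 region can reach the mean of 1 CPM through that region alone. Among the Augustus models, 15 were higher, 10 lower and 8 not called. Among the protein-aligned models, 61 were higher, 79 lower and 44 not called, and neither EST-aligned model was called. By chromosome, chromosome IV had 13 models higher and 4 lower of its 25, chromosome XVIII had 2 higher and 7 lower of 11, and chromosome VII had 7 higher and 11 lower of 23. These chromosomes are a selection from 21, and their small counts were not tested. Ensembl identifiers name no chromosome, so no share over all features stands beside them.

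Fold changes here rest on TMM scaling, which corrects for differences in the composition of libraries, whereas the printed CPM values use plain totals. On plain totals the median over all features moved to -0.16, and of the 175 models then called 33.7% were higher in the telencephalon, against 46.1% of the 165 called with TMM scaling. Over all features, 35.6% of the 13690 calls on plain totals were higher, against 49.0% of the 13561 calls with TMM scaling.

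**Figure D2:**
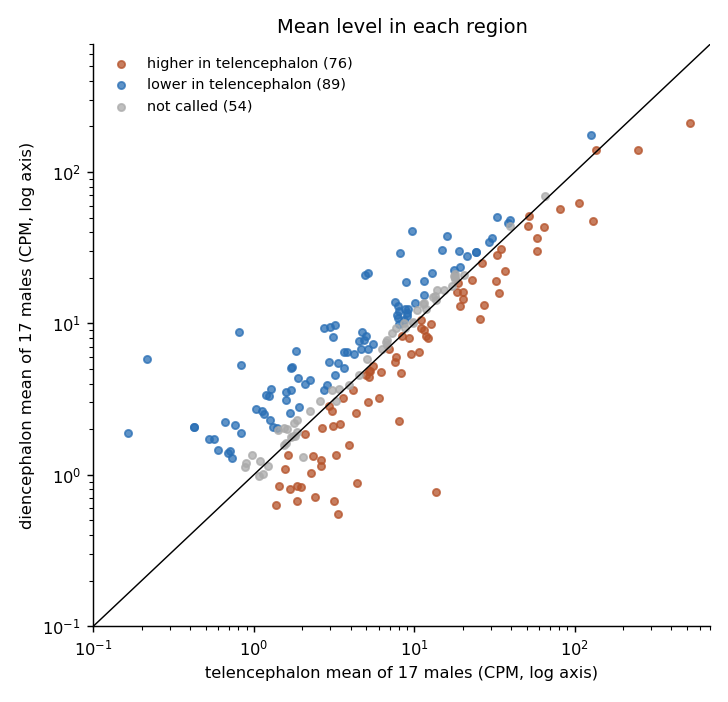
Mean level of each of the 219 models in the telencephalon (x axis) and the diencephalon (y axis), each over 17 males in CPM on log axes, with the line of equal level. The 76 models called higher in the telencephalon lie mostly below the line and the 89 called lower lie above it; the point far below the line at 13.7 against 0.767 CPM is the chromosome VII model 10.7.

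Of the 10 most abundant models, 8 were called higher in the telencephalon with TMM scaling (2 of these 8 were not called on library totals), 1 was called lower and 1 was not called. The chromosome XV model 155.21, the most abundant of all, had a lowest, median and highest level of 401, 527 and 649 CPM in the telencephalon, against 159, 206 and 279 CPM in the diencephalon. The regions did not overlap, and the log2 fold change was 1.47 (SE 0.07, adjusted p = 4.94e-19 in edgeR), higher in 17 of 17 males. The chromosome V model 89.17 had 100, 131 and 163 CPM in the telencephalon, against 37.6, 45.9 and 55.3 CPM in the diencephalon. That was a log2 fold change of 1.61 (SE 0.07, adjusted p = 4.58e-20 in edgeR), again with no overlap. The Augustus model 174.21 of chromosome VIII averaged 247 CPM ± 45.1 in the telencephalon, against 141 CPM ± 19.0 in the diencephalon (SD, n = 17 each), higher in 17 of 17 males with a log2 fold change of 0.96.

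Of the other abundant models, 3 more were higher in the telencephalon in every male. The chromosome VII model 278.44 averaged 107 CPM ± 11.1 in the telencephalon, against 62.5 CPM ± 6.26 in the diencephalon. The Augustus model 95.31 of chromosome IV averaged 80.6 CPM ± 6.73 in the telencephalon, against 57.0 CPM ± 5.51 in the diencephalon. The chromosome XVI model 190.22 averaged 64.4 CPM ± 12.03 in the telencephalon, against 43.0 CPM ± 9.79 in the diencephalon. Their log2 fold changes were 0.91, 0.64 and 0.73, in that order, and all were called.

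The exception in direction was the chromosome II model 235.49, with 109, 126 and 137 CPM as lowest, median and highest level in the telencephalon, against 144, 180 and 185 CPM in the diencephalon. It was lower in the telencephalon in 17 of 17 males, without overlap, by a small margin (log2 fold change -0.32, SE 0.04, adjusted p = 9.34e-10 in edgeR).

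The last 3 of the 10 most abundant models differed little between the regions. The Augustus model 277.7 of chromosome VII averaged 136 CPM ± 10.71 in the telencephalon, against 141 CPM ± 10.5 in the diencephalon. Its log2 fold change of 0.09 passed the test with TMM scaling (adjusted p = 0.0248 in edgeR), was -0.05 and did not pass on library totals, and lost its call in 8 of the 17 fits without 1 male. The chromosome XII model 198.0 averaged 65.3 CPM ± 6.32 in the telencephalon, against 69.4 CPM ± 7.80 in the diencephalon. It was not called (log2 fold change 0.05, adjusted p = 0.355 in edgeR; -0.09 on library totals). The Augustus model 338.75 of chromosome IV averaged 51.8 CPM ± 5.64 in the telencephalon, against 50.9 CPM ± 4.73 in the diencephalon, and its log2 fold change of 0.16 (adjusted p = 0.00205 in edgeR) was 0.02 and not called on library totals.

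The largest fold changes belonged to models of low to moderate level, all placed by protein alignment. The chromosome VII model 10.7 had 4.85, 13.7 and 19.2 CPM as lowest, median and highest level in the telencephalon, against 0.130, 0.437 and 3.72 CPM in the diencephalon. The regions did not overlap, and the log2 fold change was 4.40 (SE 0.33, adjusted p = 1.46e-13 in edgeR). In the diencephalon the libraries of males 302 and 304 stood at 3.72 and 3.37 CPM while the other 15 lay between 0.130 and 0.681 CPM, and the lowest telencephalon library was that of male 304. Without male 304 the log2 fold change was 4.84.

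The other 4 models with the largest rises averaged 3.17 to 8.05 CPM in telencephalon libraries and 0.552 to 2.28 CPM in diencephalon libraries. The chromosome VIII model 190.6 averaged 3.33 CPM ± 0.765 in the telencephalon, against 0.552 CPM ± 0.228 in the diencephalon, a log2 fold change of 2.71 (SE 0.17). The chromosome XIV model 100.6 averaged 3.17 CPM ± 0.636 in the telencephalon, against 0.670 CPM ± 0.182 in the diencephalon, a log2 fold change of 2.38 (SE 0.13). The chromosome X model 45.10 averaged 8.05 CPM ± 2.56 in the telencephalon, against 2.28 CPM ± 0.588 in the diencephalon, a log2 fold change of 1.97 (SE 0.14). In none of these 3 models did the libraries of the regions overlap. For the last of them male 304 had 3.86 CPM in the telencephalon, against 3.79 CPM in the diencephalon, and without it the log2 fold change was 2.07.

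The chromosome XXI model 148.6 varied most within the telencephalon among these. Its lowest, median and highest level was 0.177, 4.19 and 9.74 CPM in the telencephalon, against 0, 0.757 and 2.03 CPM in the diencephalon. The log2 fold change was 2.48 (SE 0.38, adjusted p = 6.45e-07 in edgeR), and 16 of 17 males had the higher level in the telencephalon. The exception was male 304, with 0.177 CPM in the telencephalon, against 0.674 CPM in the diencephalon; without it the lowest telencephalon library stood at 1.85 CPM and the log2 fold change was 2.53.

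On the other side, the chromosome XVIII model 125.6 was near 0 in most telencephalon libraries. Its lowest, median and highest level was 0, 0.0818 and 1.66 CPM in the telencephalon, against 3.58, 5.93 and 7.43 CPM in the diencephalon. The log2 fold change was -4.77 (SE 0.38, adjusted p = 4.69e-13 in edgeR), with no overlap of the regions. The telencephalon value of 1.66 CPM came from male 304. The other 16 telencephalon libraries reached at most 0.713 CPM, and without this male the log2 fold change was -5.41.

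The chromosome VIII model 133.2 had the same shape at a lower level. Its lowest, median and highest level was 0, 0.0740 and 1.06 CPM in the telencephalon, against 0.946, 1.79 and 2.86 CPM in the diencephalon (log2 fold change -3.41, SE 0.39, adjusted p = 1.97e-09 in edgeR). The libraries overlapped only through the telencephalon of male 304 at 1.06 CPM; the other 16 reached at most 0.490 CPM, and the log2 fold change without this male was -3.88.

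The chromosome XXI model 17.8 averaged 0.807 CPM ± 0.535 in the telencephalon, against 8.75 CPM ± 2.68 in the diencephalon. The chromosome XX model 50.10 averaged 0.825 CPM ± 0.423 in the telencephalon, against 5.31 CPM ± 0.888 in the diencephalon. The chromosome XVII model 179.9 averaged 0.421 CPM ± 0.226 in the telencephalon, against 2.06 CPM ± 0.404 in the diencephalon. All 3 models were lower in the telencephalon in 17 of 17 males without overlap, with log2 fold changes of -3.30, -2.56 and -2.15, in that order. For the first of them the highest telencephalon library, at 1.84 CPM, was again that of male 304, and without it the log2 fold change was -3.47.

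**Figure D3:**
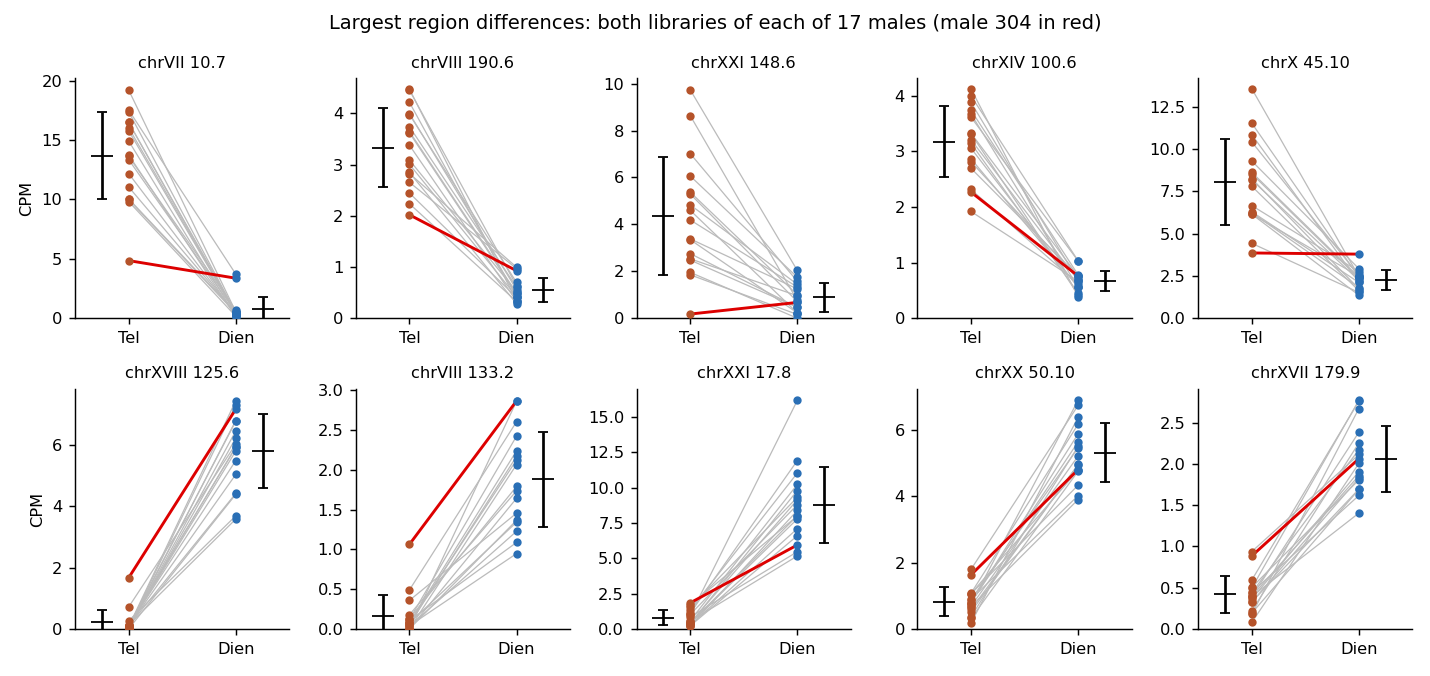
Level (y axis, CPM) of the 5 models with the largest rise and the 5 with the largest fall in the telencephalon, with a line joining the telencephalon (Tel, left) and diencephalon (Dien, right) library of each of 17 males and black marks for mean and SD. Male 304, in red, has the lowest telencephalon library for 4 of the 5 models in the upper row, and the highest one for the first 3 models in the lower row.

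Models that lie in the same numbered window were not always called in the same direction. In 23 windows that hold 50 of the models, 19 hold 2 and 4 hold 3. Every model of the window was higher in the telencephalon in 4 windows and lower in 4. A higher and a lower model lay together in 7 windows, and the remaining 8 had at least 1 model that was not called. The counts were not tested. They were not set against the shares of calls over all models or against windows of all features. The models described next were picked after their values had been seen.

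In window 17 of chromosome XXI, model 17.4 averaged 1.85 CPM ± 0.519 in the telencephalon, against 0.672 CPM ± 0.268 in the diencephalon, while its neighbour 17.8 was lower in the telencephalon, as given above. The third model of the window, 17.19, averaged 1.58 CPM ± 0.489 in the telencephalon, against 3.49 CPM ± 0.903 in the diencephalon. The log2 fold changes of 17.4, 17.8 and 17.19 were 1.58, -3.30 and -0.99. In window 10 of chromosome VII both models were higher in the telencephalon. Model 10.3, beside the 10.7 described above, averaged 9.50 CPM ± 2.30 in the telencephalon, against 6.27 CPM ± 0.989 in the diencephalon, a log2 fold change of 0.74.

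In window 53 of chromosome XV, model 53.10 had 1.27, 8.89 and 30.8 CPM as lowest, median and highest level in the telencephalon, against 28.3 CPM as the lowest and 48.7 CPM as the highest in the diencephalon. The telencephalon libraries spread more widely for their level than the diencephalon libraries. The regions overlapped only through the telencephalon library of male 304, the highest; the next was that of male 322 at 26.6 CPM. The log2 fold change was -1.98 (SE 0.31), and -2.21 without male 304, whereas its neighbour 53.4 averaged 4.32 CPM ± 0.568 in the telencephalon, against 2.56 CPM ± 0.391 in the diencephalon, a log2 fold change of 0.90 (SE 0.08).

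The second comparison asks which models differ from male to male in both regions at once. Each male gave 2 libraries, so a level that is a property of the male shows as a shift of both. In a fit of region and male, 36 of the 219 models (16.4%) passed the test of the 16 male coefficients, against 33.1% of all features tested (5954 of 18012). Among models of 1 to 10 CPM the count was 17 of 140 (12.1%, background 26.3%), and among models of at least 10 CPM it was 19 of 79 (24.1%, background 37.4%). The 36 comprised 5 Augustus and 31 protein-aligned models. Of the 165 models called between regions 25 were also called between males, and of the other 54 models 11 were. These 2 counts were not tested and not set against the same split over all features. Without male 304, 46 models were called between males. Over all features, the 17 fits without 1 male called 5252 to 6766 between males, against 5954 with all males.

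The range over males of the mean log2(CPM + 0.5) of both regions had a median of 0.82 over the 36 called models and 0.62 over the other 183. Each male belongs to 1 treatment group, so part of a difference between males could follow the treatment groups. With treatment fitted as well, 37 models were called between males, and 35 of the 36 were among them. That fit called 5943 of the 18012 features tested.

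A pair of models had the widest ranges of all 219. The chromosome V model 7.1, placed by protein alignment, spanned 3.73 on that log2 scale. Its lowest, median and highest level was 0.259, 1.82 and 10.9 CPM in the telencephalon, against 1.47, 6.08 and 25.7 CPM in the diencephalon. The same 4 males held the highest levels in both regions. They were male 322 of the challenge group (10.9 CPM in the telencephalon, against 25.5 CPM in the diencephalon), male 306 of the tradeoff group (7.24 and 25.7 CPM), male 303 of the control group (6.23 and 23.3 CPM) and male 317 of the challenge group (5.61 and 19.1 CPM). The other 13 males reached at most 4.99 CPM in telencephalon libraries and 10.9 CPM in diencephalon libraries, with levels spread down to the lowest. The adjusted p between males was 1.63e-06 in edgeR, at most 7.14e-06 in the 17 fits without 1 male, and 2.15e-06 within treatment groups. The model was also lower in the telencephalon in 17 of 17 males (log2 fold change -1.54, SE 0.49, adjusted p = 0.00542 in edgeR).

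The chromosome IV model 231.14 split the males into a high set of 3 and a low set of 14. Male 304 of the control group had 9.07 CPM in the telencephalon, against 6.11 CPM in the diencephalon, male 299 of the courtship group had 8.89 CPM and 5.11 CPM, and male 323 of the tradeoff group had 7.96 CPM and 5.49 CPM. The other 14 males lay between 0.220 and 1.20 CPM in telencephalon libraries and between 0.113 and 1.09 CPM in diencephalon libraries, so no level lay between 1.20 and 5.11 CPM in either region. The adjusted p between males was 5.67e-10 in edgeR and 2.95e-09 without male 304. The 3 high males came from 3 treatment groups. The difference between regions was not called (log2 fold change 0.79, SE 0.59, adjusted p = 0.226 in edgeR). That fit had no term for male, so the wide spread between males entered its error and the pairing of the regions was not used.

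**Figure D4:**
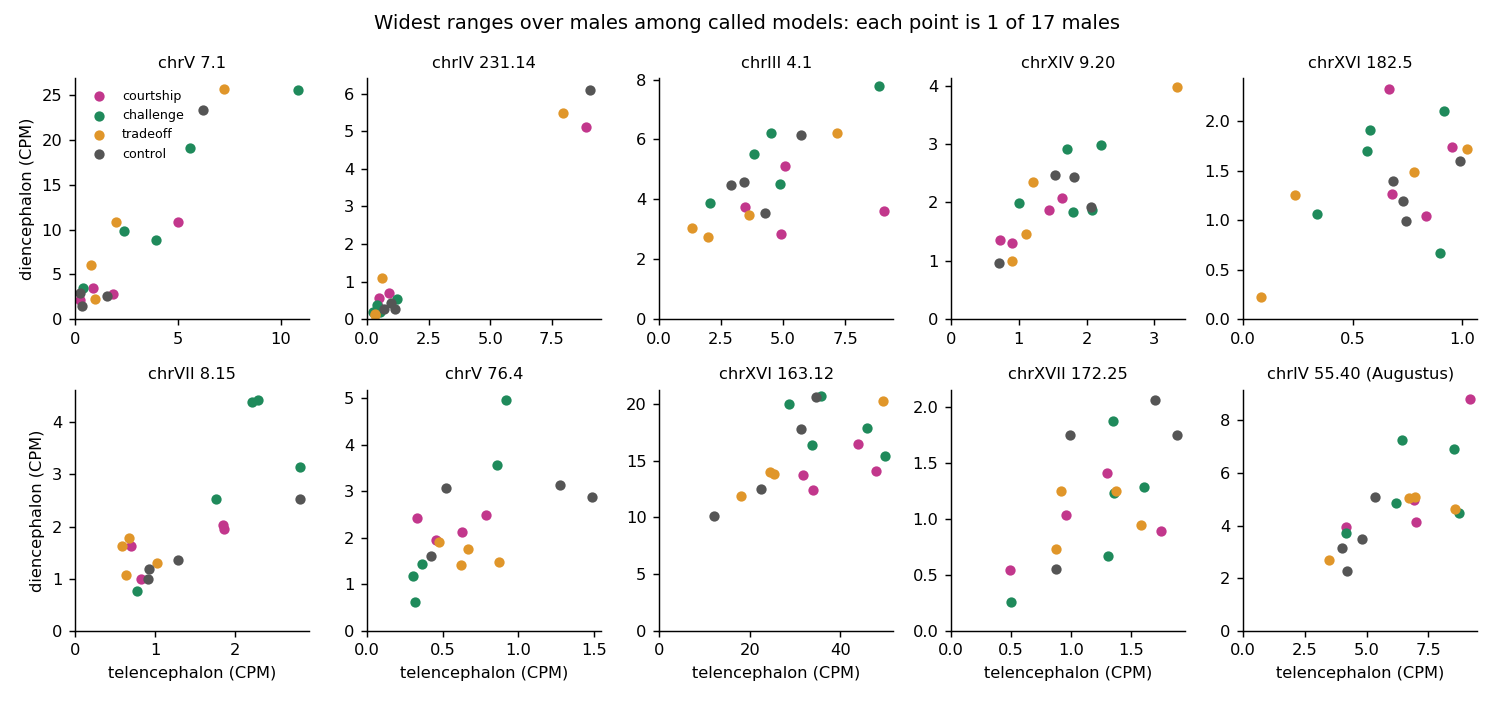
Level of the 10 models with the widest range over males among the 36 called between males, in the telencephalon (x axis, CPM) and the diencephalon (y axis, CPM), each point being 1 of 17 males coloured by treatment group. The chromosome IV model 231.14 shows 3 males at 7.96 to 9.07 CPM in the telencephalon apart from the other 14, while for the chromosome V model 7.1 the 4 highest males lie at 19.1 CPM or more in the diencephalon and the other 13 at 10.9 CPM or less.

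The other called models ranged over less than 2 log2 units. For the chromosome XIV model 9.20, male 323 was the highest in both regions, with 3.33 CPM in the telencephalon, against 3.97 CPM in the diencephalon, while male 304 was the lowest in both with 0.708 and 0.969 CPM (adjusted p between males = 0.000295 in edgeR, and 0.00111 without male 304). The chromosome VII model 8.15 ranged from 0.587 to 2.82 CPM in telencephalon libraries and from 0.761 to 4.44 CPM in diencephalon libraries (adjusted p = 0.000244 in edgeR). Males 330 and 317 of the challenge group were the highest in the diencephalon, and male 322 of that group the highest in the telencephalon. Male 303 of the control group was close to it there, at 2.81 CPM. Male 318, also of the challenge group, was the lowest in the diencephalon and stood at 0.770 CPM in the telencephalon. The Augustus model 55.40 of chromosome IV was highest in male 329 in both regions, at 9.21 CPM in the telencephalon, against 8.83 CPM in the diencephalon (adjusted p = 0.000329 in edgeR).

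The chromosome V model 76.4 ranged from 0.301 to 1.49 CPM in telencephalon libraries and from 0.627 to 4.96 CPM in diencephalon libraries (adjusted p = 0.00763 in edgeR). The chromosome XVI model 163.12 was the most abundant of these and lowest in male 303 in both regions, with 12.1 CPM in the telencephalon against a highest level of 49.8 CPM, and 10.1 CPM in the diencephalon against a highest level of 20.7 CPM (adjusted p = 0.0178 in edgeR). It was also higher in the telencephalon in 17 of 17 males, with a log2 fold change of 1.21.

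Of these 10 models, 3 lost the call between males in 1 of the fits without 1 male. Of all 36 called models, 18 were called in every such fit and 18 were lost in at least 1, with at most 9 lost in a single fit (that without male 306). These losses were not set against the losses over all features. The chromosome XVI model 182.5 was lowest in male 302 in both regions, at 0.0791 CPM in the telencephalon, where the median was 0.728 CPM, and 0.225 CPM in the diencephalon, where it was 1.39 CPM. Its adjusted p between males was 0.0349 in edgeR and 0.558 without this male. The chromosome III model 4.1 ranged from 1.31 to 9.06 CPM in telencephalon libraries and from 2.76 to 7.79 CPM in diencephalon libraries, with an adjusted p of 0.0171 in edgeR and 0.0538 without male 330. The chromosome XVII model 172.25 was lowest in male 318 in the diencephalon, at 0.254 CPM, and in male 329 in the telencephalon, at 0.488 CPM. Its adjusted p was 0.0141 in edgeR and 0.0675 without male 318.

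Of the 23 shared windows, 2 held a pair of models called between males, a count that was not tested. In window 20 of chromosome XII, models 20.19 and 20.25 had adjusted p-values between males of 0.0498 and 0.00308 in edgeR. In window 182 of chromosome XVI, model 182.13, chosen after its values were seen, was called between males with an adjusted p of 0.00209 in edgeR. In male 302, in which its neighbour 182.5 was lowest, it stood at 1.54 CPM in the telencephalon, against 2.20 CPM in the diencephalon. Over all males it averaged 1.26 CPM ± 0.525 in the telencephalon, against 2.31 CPM ± 0.742 in the diencephalon. Male 302 was the lowest of the 17 males for this model in neither region.

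The third set of comparisons asks whether the last stimulus a male met changed the models, within each region. No model passed an adjusted p of 0.05 in edgeR in any of the 14 comparisons, which were an overall test of the 4 groups and 6 pairs of groups in each region, and none of all features did (0% of 18277 tested in telencephalon fits and 0% of 18399 in diencephalon fits). The telencephalon fits tested 217 of the 219 models and the diencephalon fits all 219. At an unadjusted p under 0.05 there were 3 to 9 models per comparison (1.37 to 4.11%), against 2.34 to 4.51% of all features. These counts varied with single males: leaving out 1 male moved them by more than 1.5 times in 13 of the 14 comparisons, to between 1 and 16 models. The count of 16 was for challenge against control in the diencephalon without male 303, where 8 were counted with all males, and without male 307 it was 4. For courtship against challenge in the telencephalon the count was 13 without male 298, where 5 were counted with all males. DESeq2, limma voom and the other settings tried also called none of the models.

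In the telencephalon, 4 models had an unadjusted p under 0.05 for courtship against control (background 2.51%), 7 for challenge against control (background 2.66%) and 5 for tradeoff against control (background 2.75%). Another 3 did so for tradeoff against courtship (background 3.81%), 8 for tradeoff against challenge (background 3.44%) and 5 for courtship against challenge (background 3.42%). The overall test gave 6 (background 2.49%). In the diencephalon the counts were 4 for courtship against control (background 2.34%), 8 for challenge against control (background 2.61%) and 5 for tradeoff against control (background 3.14%). They were 8 for tradeoff against courtship (background 4.51%), 9 for tradeoff against challenge (background 3.53%), 8 for courtship against challenge (background 3.93%) and 3 in the overall test (background 2.72%). The 3 comparisons with control in a region share the control males, so their counts are not independent.

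The precision of these comparisons can be read from the standard error of the log2 fold change, whose median over the models was 0.20 to 0.21 in telencephalon fits and 0.16 to 0.17 in diencephalon fits. Differences of the order of these errors were not detectable, and some well above their own error were not called either. For the chromosome VIII model 52.6, courtship against challenge in the telencephalon gave a log2 fold change of -0.33 with an SE of 0.08, and was not called. In 11 of the 12 pairs of groups, 1 to 3 models had a fitted difference of more than 2-fold, none of them called.

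The lowest p of all belonged to the chromosome VIII model 52.6 in the telencephalon. Courtship males had 11.03, 10.9, 11.4 and 11.9 CPM, challenge males 13.8, 14.9, 13.2, 13.7 and 14.7 CPM, tradeoff males 14.0, 14.1, 12.6 and 12.2 CPM, and control males 13.9, 15.1, 12.1 and 12.9 CPM. All 4 courtship males lay below the 13 other males, by a small margin. For courtship against challenge the log2 fold change was -0.33 (SE 0.08, adjusted p = 0.9995 in edgeR). The same model had the lowest p among the models in the test of all 4 groups and for tradeoff against courtship (log2 fold change 0.23, SE 0.09).

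The chromosome XX model 57.8 separated tradeoff from challenge males in the telencephalon. Tradeoff males had 31.9, 30.2, 33.7 and 27.6 CPM, and challenge males had 39.7, 41.7, 36.0, 40.4 and 36.1 CPM, with no overlap. The log2 fold change was -0.34 (SE 0.10, adjusted p = 0.9997 in edgeR). Courtship males averaged 33.3 CPM ± 3.74 (SD, n = 4) and control males 35.8 CPM ± 4.04 (SD, n = 4), between the other groups.

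In each of the 6 comparisons with control, the model with the lowest p had male 304 as its most extreme control. In the telencephalon the chromosome IX model 19.5 averaged 14.4 CPM ± 1.09 in courtship males and 19.2 CPM ± 3.42 in control males (SD, n = 4 each). The chromosome XVIII model 138.0 averaged 2.12 CPM ± 0.635 in challenge males (n = 5) and 3.34 CPM ± 0.608 in control males (n = 4). The chromosome V model 125.0 averaged 2.13 CPM ± 0.179 in tradeoff males and 3.32 CPM ± 0.610 in control males (n = 4 each). Their log2 fold changes were -0.41, -0.63 and -0.63, and -0.33, -0.56 and -0.51 without male 304.

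In the diencephalon the chromosome XVI model 183.7 averaged 2.37 CPM ± 0.606 in courtship males and 3.53 CPM ± 1.07 in control males. The chromosome IV model 333.10 had 0.905, 0.848, 0.719, 1.03 and 0.619 CPM in challenge males, against 1.21, 2.32, 1.11 and 1.41 CPM in control males. The chromosome VII model 23.7 averaged 5.22 CPM ± 0.715 in tradeoff males and 3.99 CPM ± 0.632 in control males. Their log2 fold changes were -0.57, -0.86 and 0.38, and -0.38, -0.59 and 0.27 without male 304, whose level was the highest control value for the first 2 and the lowest for the third.

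Between stimulus groups in the diencephalon, the chromosome IV model 336.2 had 17.5, 16.8, 19.5 and 19.5 CPM in courtship males, 13.6, 12.2, 16.2, 13.9 and 18.3 CPM in challenge males, and 19.7, 17.7, 19.9 and 16.3 CPM in tradeoff males. The log2 fold change was 0.30 for courtship over challenge (SE 0.10) and 0.29 for tradeoff over challenge (SE 0.10), and the groups overlapped. The chromosome XII model 20.25 averaged 12.6 CPM ± 0.904 in tradeoff males and 9.52 CPM ± 1.52 in courtship males without overlap, a log2 fold change of 0.40 (SE 0.15). None of these passed the adjustment.

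**Figure D5:**
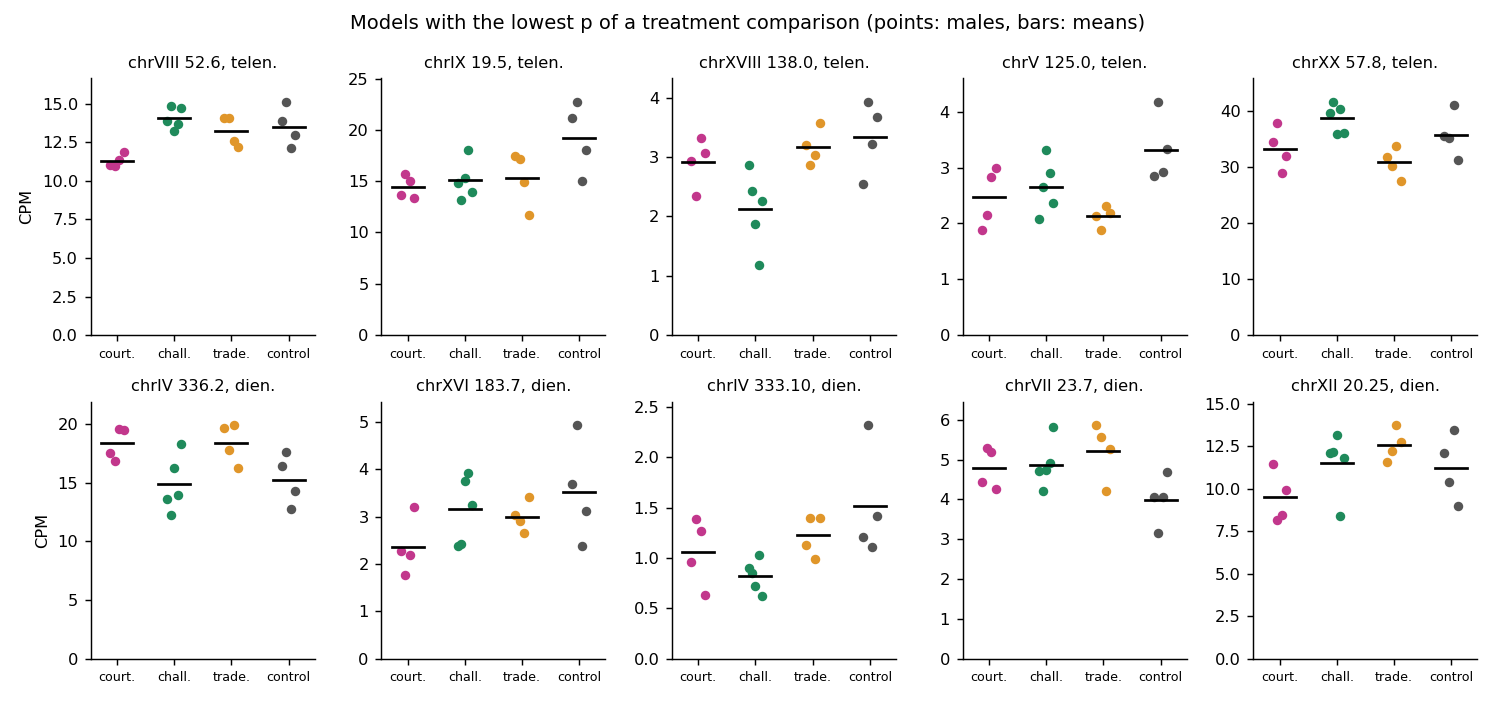
Level (y axis, CPM) of the 10 models with the lowest p of a treatment comparison, in the region of that comparison, with a point for each courtship (4), challenge (5), tradeoff (4) and control (4) male and a bar at the group mean. No difference shown passed the adjustment over all features; the 4 courtship males lie below the other 13 for the chromosome VIII model 52.6.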

How the data were processed

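The authors deposited a table of raw counts per gene model for each of 34 libraries (stranded mRNA libraries, per the labels' protocols). Reads were aligned with STAR and counted with HTSeq, per the submitters' processing notes; the sources used here do not give versions, genome build, annotation or strand setting. Each file lists 22295 features and 5 summary rows, which entered neither library sizes nor tests. No-feature reads made 38.5% of telencephalon and 35.3% of diencephalon totals, and ambiguous reads 0.631% and 1.17%.

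Differences were tested with edgeR 4.0.16 (R 4.3.3; robust quasi-likelihood F test, TMM, filterByExpr) on all features, with Benjamini-Hochberg adjustment. Region was fitted with treatment, males with region, and treatments within each region with all 4 groups. Alternatives were DESeq2 1.42.0, limma 3.58.1 (voom), other scaling, no filter, each male left out, only the compared groups in the fit, and a male block. The fitting code was tested on simulated data. No 2 libraries of a group agreed within sampling noise (chi-square per degree of freedom 12.2 to 97.6 over 56 pairs). Libraries with the same number come from the same male, which pairs the regions: their deviations from group means correlated at 0.374 on average (-0.0355 to 0.560, 17 males, across 16875 features), and in 14 of 17 males the telencephalon library correlated best with the diencephalon library of that male.

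Named models were the 10 most abundant, the 5 with the largest called region fold in each direction, those with the lowest p of each treatment comparison, the 10 with the widest range over males among those called, and 3 on each side of the threshold. The models and these lists were chosen with earlier results of these data known. The marker genes chosen for brain cell types could not be looked up. Counts carry no molecular identifiers. Standard errors were derived from the fits, as the absolute log2 fold change over the square root of the F statistic, and are approximate.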

Additional observations from a re-analysis of the deposited data

Results flagged for a closer look

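Among 48 groups of 4 or 5 libraries searched for a value far from the rest, 1 stood apart, where chance would flag about 1 group in 20. It was the chromosome XII model 20.25 in the diencephalon of challenge males: male 322 had 8.41 CPM and the other 4 males 11.8 to 13.2 CPM, so the gap was 0.716 of the group's range. Why this library is low was not tested.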

How the results depend on the processing

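The counts of calls for region and male stayed within 1.5 times their values under every alternative run. Leaving out 1 male in turn gave 159 to 167 models called between regions (68 to 76 higher, 86 to 94 lower). Between males it gave 29 to 46 models, where 36 were called with all, and 46 was the count without male 304. Over all features these fits called 13295 to 13512 between regions and 5252 to 6766 between males. With the replicate block of male, 14602 of the 18012 features were called between regions, where 13561 were called without it. The models called were 175, within 1.5 times the 165 without it. Of those 165, 164 were also called with the block. On library totals 175 models and 13690 features were called between regions, and these 175 models held 148 of the 165. With the block, no region call changed among the 20 models named for their abundance or their region fold. The region calls of the other named models were not checked with the block. DESeq2 called 53 models between males and 8573 of the 21597 features it tested. A rule of 0.5 or 2 CPM would take 253 or 167 models and TMM-scaled CPM 216. Among the 20 models named for their abundance or their region fold, 2 log2 fold changes turned negative on library totals. They were -0.053 for the chromosome VII model 277.7 and -0.088 for the chromosome XII model 198.0. The signs of the other models were not compared. Over all 219 models the median log2 fold change was -0.20 on library totals and -0.06 with TMM scaling, against -0.16 and -0.02 over all features. In the treatment comparisons, where edgeR called 0 features, DESeq2 called 2 in the telencephalon test of all 4 groups, 1 in each comparison with control there, 5 for tradeoff against courtship, 2 for tradeoff against challenge and 2 for courtship against challenge. In the diencephalon it called 8 in the test of all groups, 4 for tradeoff against courtship, 1 for tradeoff against challenge and 2 for courtship against challenge. With only the compared groups in the fit, edgeR called 4 (telencephalon) and 8 (diencephalon) for tradeoff against courtship and 1 in each region for courtship against challenge. None of these features were among the 219 models described here, and the cause was not tested. With 4 or 5 males a group, small treatment differences were not detectable.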
